A study of Mus musculus with 9 samples.

Results

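The genes described here are 10 markers of crypt stem cells and targets of the Wnt pathway: Lgr5, Rnf43, Axin2, Ascl2, Myc, Sox9, Cd44, Prom1, Smoc2 and Olfm4. They were chosen by name, with earlier results of these data known. Each was found through its Entrez Gene number on 1 probe set, out of 24011 genes that could be named. All 10 passed the filter on low levels and belong to the 16808 genes tested. The study compared gene expression in the large intestine with and without reduced DHX9, an RNA and DNA helicase. Total RNA of 9 samples was hybridised to Affymetrix Mouse Gene 2.0 ST arrays, which carry probes along the length of each transcript. The 3 control samples came from FLuc.1309/rtTA mice, whose short hairpin RNA targets firefly luciferase, a gene that mice lack. The 3 samples of DHX9-1271 and the 3 of DHX9-837 came from DHX9.1271/rtTA and DHX9.837/rtTA mice, which carry different hairpins against Dhx9. All groups were on a C57BL/6 background, carried the doxycycline-dependent activator rtTA, and drank 1 mg/ml doxycycline with 5% sucrose for 14 days from the age of 4 weeks. The promoter that drives rtTA, and so the cells that make the hairpin, is not given in the sources used here. Nothing in the labels ties a replicate to an animal of its own, and the spread behind each p-value is that of the samples given, part or all of which may be technical.

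The lining of the large intestine is renewed from stem cells at the base of the crypts, and Wnt ligands from the surrounding tissue keep these cells dividing. When Wnt binds its receptors, beta-catenin enters the nucleus and, with TCF factors, switches on target genes. The targets include receptors and transcription factors of the stem cell, and also inhibitors that damp the signal. As cells leave the crypt base they lose Wnt signalling and mature into absorptive, goblet or hormone-producing cells.

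The libraries matched their labels at the targeted gene: Dhx9 was at 9.18 to 9.32 on the log2 scale in control arrays and at 8.18 to 8.27 in knockdown arrays, with no overlap. The fold between both hairpins and control was 0.492 on the linear scale (limma, adjusted p = 1.28e-05). Median levels of the 9 arrays lay between 6.25 and 6.28. All 17 absorptive colonocyte markers and all 14 general epithelial markers fixed for this work passed the level filter, and so did 15 of 16 genes typical of the small intestine. Values below are the authors' log2 expression levels, in which a difference of 1 is a doubling. A gene was called changed at an adjusted p under 0.05, and levels of different genes are not compared, since each probe set has its own brightness.

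Against control, both hairpins together raised Cd44, Myc, Axin2 and Ascl2 and lowered Prom1, whereas Lgr5, Rnf43, Sox9, Smoc2 and Olfm4 were not called. So 4 of the 10 genes rose and 1 fell, where 8.13% of all tested genes rose and 5.33% fell. Either way, 13.5% of tested genes were called. The 10 genes and the lists below were chosen with earlier results of these data known. Their shares beside those of all tested genes are therefore descriptions and no independent test. On the linear scale the rises ended at 42.0% for Cd44, and Prom1 fell by 22.1%. The median log2 fold of the 10 genes was 0.21, against 0.0011 for all tested genes. With each array centred on its median, the split over all genes turned from 1367 up and 896 down to 1111 up and 1180 down, and the 10 genes still gave 4 up and 1 down. These are bulk samples, in which fewer cells of a type and less RNA per cell cannot be told apart.

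**Figure D1:**
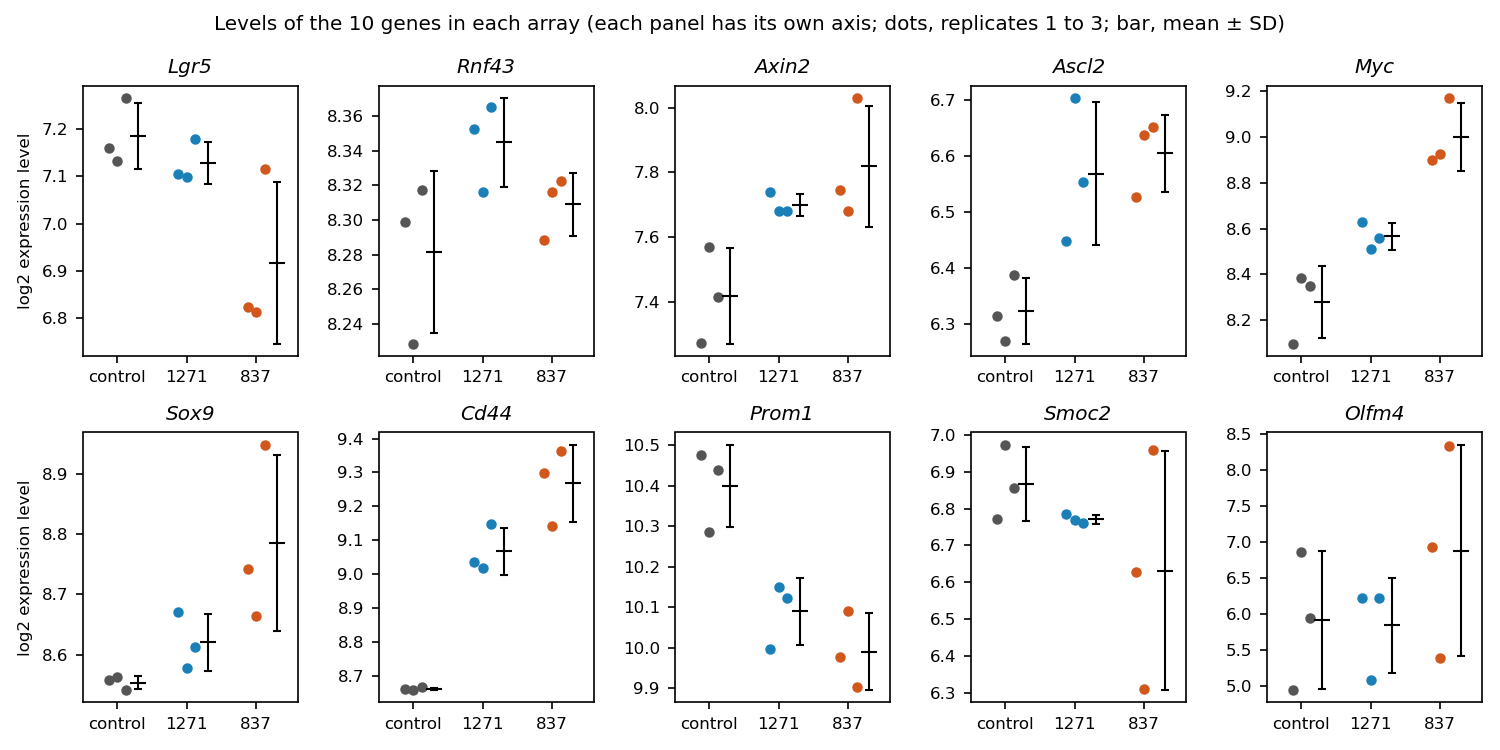
Log2 expression level (vertical axis, 1 scale per panel) of each of the 10 genes in the 3 control, 3 DHX9-1271 and 3 DHX9-837 arrays; dots are arrays in the order of replicates 1 to 3 and the bar is the mean ± SD. Cd44, Myc, Axin2, Ascl2 and Sox9 lie above all controls in the 6 knockdown arrays and Prom1 lies below them, while Olfm4 spans 4.95 to 8.33 with overlapping groups.

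Among receptors and regulators at the membrane, Lgr5 encodes the R-spondin receptor that marks crypt base stem cells. Lgr5 was at 7.16, 7.13 and 7.26 in control replicates 1 to 3, at 7.10, 7.10 and 7.18 with DHX9-1271 and at 6.82, 6.81 and 7.11 with DHX9-837. The DHX9-837 arrays were all below the controls, with replicate 3 close to them, and the DHX9-1271 arrays overlapped the control range. Its log2 fold in DHX9-837 was -0.27 (95% interval -0.46 to -0.080, adjusted p = 0.0615), and in DHX9-1271 it was -0.058 (95% interval -0.25 to 0.13). Without DHX9-837 replicate 3 the fold in DHX9-837 was -0.37 and Lgr5 was called lower (adjusted p = 0.0085); in both hairpins together it was then called too (-0.21, adjusted p = 0.0281). In DHX9-837 Lgr5 was also called lower with a filter at the median gene (adjusted p = 0.0419), with centred arrays (adjusted p = 0.028), with cyclic loess (adjusted p = 0.0373) and with a replicate block, 5 of 21 alternatives in all.

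Rnf43 encodes a ubiquitin ligase that removes Wnt receptors from the cell surface and is itself a Wnt target. Rnf43 was the steadiest of the 10 genes, with 8.30, 8.23 and 8.32 in control, 8.35, 8.32 and 8.37 in DHX9-1271 and 8.29, 8.32 and 8.32 in DHX9-837. The 3 groups overlapped, and the log2 fold of both hairpins was 0.046 (95% interval -0.040 to 0.13, adjusted p = 0.47). The interval leaves room for a rise of at most 1.10-fold.

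Axin2 encodes a scaffold protein of the complex that degrades beta-catenin, and its transcript is widely used as a readout of Wnt signalling. Its level was 7.27, 7.57 and 7.41 in control, 7.74, 7.68 and 7.68 in DHX9-1271 and 7.75, 7.68 and 8.03 in DHX9-837. All 6 knockdown arrays were above the controls, and DHX9-837 replicate 3 was the highest. The log2 fold of both hairpins was 0.34 (SE 0.087, adjusted p = 0.0354). The call of Axin2 was lost in 9 of 20 alternatives, among them the fits without control replicate 1 (0.27, adjusted p = 0.129), without control replicate 3 (adjusted p = 0.09), and without DHX9-1271 replicate 1, 2 or 3 (adjusted p = 0.0689, 0.0659 and 0.069).

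Of the transcription factors, Ascl2 is a Wnt-induced regulator that maintains the Lgr5-positive stem cell state. Its values were 6.31, 6.27 and 6.39 in control, 6.45, 6.70 and 6.55 in DHX9-1271 and 6.53, 6.64 and 6.65 in DHX9-837. Again every knockdown array exceeded every control, and both hairpins gave nearly the same mean (6.57 and 6.60). The log2 fold of both hairpins was 0.26 (SE 0.062, adjusted p = 0.0253). Ascl2 lost its call when control replicate 1 or 2, DHX9-1271 replicate 3, or DHX9-837 replicate 2 or 3 was left out, with adjusted p-values from 0.0514 to 0.0799.

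Myc drives growth and cell division downstream of Wnt. Myc was at 8.10, 8.39 and 8.35 in control, at 8.63, 8.51 and 8.56 in DHX9-1271 and at 8.90, 8.93 and 9.17 in DHX9-837. The 3 groups did not overlap one another, and Myc was the sole gene of the 10 for which all DHX9-837 arrays exceeded all DHX9-1271 arrays. Its log2 fold was 0.50 in both hairpins (SE 0.082, adjusted p = 0.00551) and 0.72 in DHX9-837 (SE 0.095, adjusted p = 0.00175). In DHX9-1271 the fold was 0.29 (95% interval 0.072 to 0.50) and was not called (adjusted p = 0.131).

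Sox9 encodes a transcription factor of crypt base cells that is induced by Wnt. It was at 8.56, 8.56 and 8.54 in control, 8.67, 8.58 and 8.61 in DHX9-1271 and 8.74, 8.66 and 8.95 in DHX9-837. All 6 knockdown arrays lay above the tight control values, some by very little. The log2 fold was 0.15 in both hairpins (adjusted p = 0.146) and 0.23 in DHX9-837 (adjusted p = 0.0591), and neither passed the threshold. In DHX9-837 it passed in 4 of 21 alternatives: without replicate 2 (0.29, adjusted p = 0.0344), with a filter at the median gene (adjusted p = 0.0394) and with moderation by trend (adjusted p = 0.0412) or by trend with robust (adjusted p = 0.0355).

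The surface markers held the clearest rise and the fall. Cd44 encodes a hyaluronan receptor that is a Wnt target in crypts and is also present on leukocytes and stromal cells. Cd44 was at 8.66, 8.66 and 8.67 in control, at 9.04, 9.02 and 9.15 in DHX9-1271 and at 9.30, 9.14 and 9.36 in DHX9-837. The knockdown arrays all stood clear of the controls, whose SD was 0.0038. Cd44 rose by a log2 fold of 0.51 in both hairpins (SE 0.055, adjusted p = 0.000988), 0.41 in DHX9-1271 (SE 0.064, adjusted p = 0.0132) and 0.61 in DHX9-837 (SE 0.064, adjusted p = 0.000659). It was the 1 gene of the 10 called with DHX9-1271 alone, and that call was lost without DHX9-1271 replicate 3 (0.37, adjusted p = 0.0639).

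Prom1 encodes prominin-1 (CD133), a protein of membrane protrusions that marks crypt base cells and, in mice, other epithelial cells too. Prom1 was at 10.48, 10.29 and 10.44 in control, at 9.996, 10.15 and 10.12 in DHX9-1271 and at 9.98, 10.09 and 9.90 in DHX9-837. Each knockdown array was below each control array. The log2 fold was -0.36 in both hairpins (SE 0.064, adjusted p = 0.00771) and -0.41 in DHX9-837 (SE 0.073, adjusted p = 0.00682). In DHX9-1271 it was -0.31 (SE 0.073) with an adjusted p of 0.0504, just outside the threshold, and it passed in 6 of 21 alternatives.

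Smoc2 encodes a secreted matrix protein of stem cells and also of fibroblasts. It was at 6.77, 6.97 and 6.86 in control, 6.78, 6.77 and 6.76 in DHX9-1271 and 6.63, 6.31 and 6.96 in DHX9-837. The groups overlapped, and DHX9-837 held both the lowest value of the 9 arrays and one near the top of the control range. The log2 fold of both hairpins was -0.17 (95% interval -0.43 to 0.10, adjusted p = 0.397). Without DHX9-837 replicate 3, Smoc2 was called lower in DHX9-837 (-0.40, adjusted p = 0.0386).

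Olfm4 encodes olfactomedin-4, a secreted glycoprotein that marks stem cells of the mouse small intestine and is little used as a stem cell marker in the mouse colon. Its level was 4.95, 6.87 and 5.95 in control, 6.22, 5.09 and 6.22 in DHX9-1271 and 6.93, 5.39 and 8.33 in DHX9-837. The spread within groups was larger than any difference between them: the pooled SD within groups was 1.08, above that of 99.8% of tested genes. The log2 fold of both hairpins was 0.44 (95% interval -0.99 to 1.88, adjusted p = 0.686). It was 0.083 without DHX9-837 replicate 3 and -0.042 without control replicate 1, and it was called in neither. The mean level of the 16 small intestine genes, Olfm4 not among them, varied with it. The list was lowest in DHX9-1271 replicate 2 (6.96), control replicate 1 (7.26) and DHX9-837 replicate 2 (7.30), the arrays lowest in Olfm4. It was highest in DHX9-837 replicate 3 (9.29), control replicate 2 (8.62) and DHX9-837 replicate 1 (8.57), the arrays highest in Olfm4. The list ran from 7.26 to 8.62 in control, from 6.96 to 7.72 in DHX9-1271 and from 7.30 to 9.29 in DHX9-837. Of its 15 tested genes, 0 rose and 2 (Alpi and Fabp2) fell in both hairpins together. Alpi was called with each hairpin alone. Fabp2 was called with neither alone (limma, adjusted p = 0.0844 in DHX9-1271 and 0.087 in DHX9-837). The part of small intestine RNA in the Olfm4 values was not tested.

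**Figure D2:**
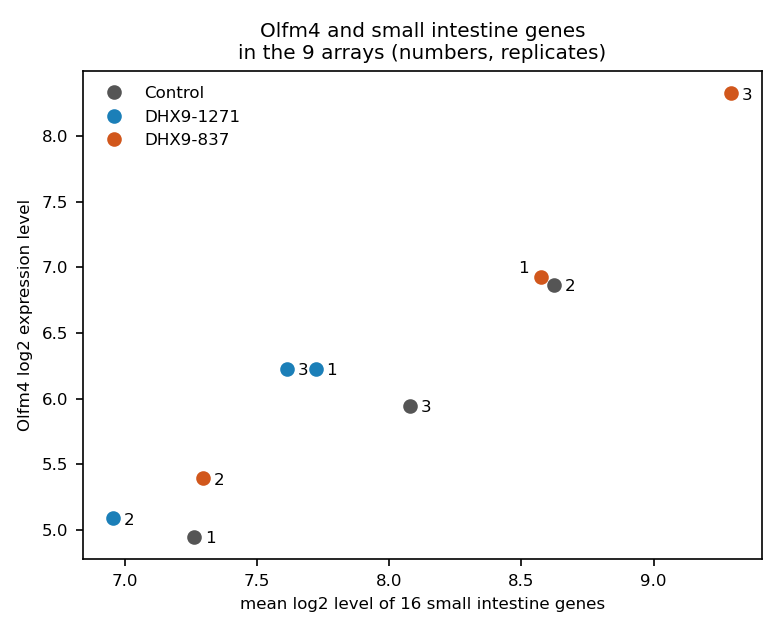
Olfm4 log2 level (vertical axis) against the mean log2 level of 16 small intestine genes (horizontal axis) in the 9 arrays, coloured by group and numbered by replicate. DHX9-837 replicate 3 is highest on both axes, and control replicate 1 and DHX9-1271 replicate 2 are lowest.

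The exact two-sided permutation test of both hairpins against control, over the 84 ways to choose 3 of 9 arrays, gave its smallest possible p of 0.0119 for Cd44, Axin2, Ascl2 and Prom1. The same exact permutation test gave p = 0.0238 for Myc and p = 0.0714 for Sox9. Knockdown arrays all above the controls were seen for 5 of the 10 genes, against 10.7% of tested genes, and knockdown arrays all below for 1, against 6.73%. With 3 arrays in each group it cannot pass the threshold, so it was not used for a single hairpin.

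**Figure D3:**
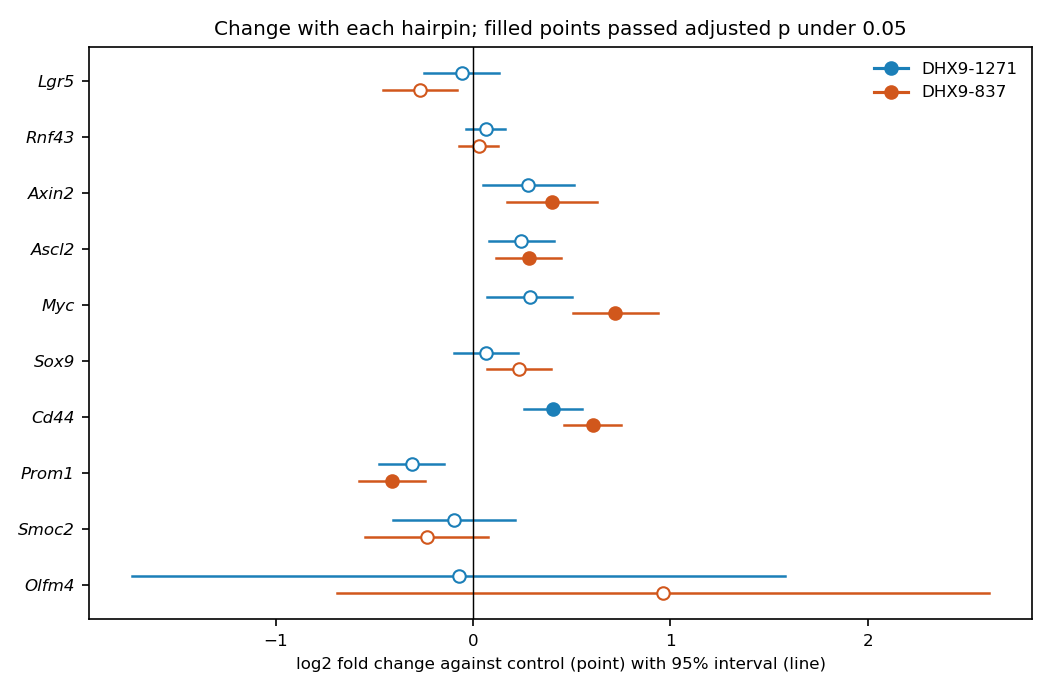
Log2 fold change against control (horizontal axis) of the 10 genes (rows) with DHX9-1271 and DHX9-837; points are fitted folds, lines are 95% intervals and filled points passed an adjusted p under 0.05. Cd44 is filled for both hairpins, while Myc, Axin2, Ascl2 and Prom1 are filled for DHX9-837 and point the same way with DHX9-1271.

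Each hairpin was also set against the same control arrays, so the comparisons are not independent. With DHX9-837, 4 of the 10 genes rose (Cd44, Myc, Axin2 and Ascl2) and 1 fell (Prom1), where 8.67% of tested genes rose and 6.91% fell (15.6% in all). With DHX9-1271, 1 rose (Cd44) and 0 fell in the limma fit, where 2.83% rose and 1.58% fell (4.41% in all). At an unadjusted p under 0.05 the counts were 4 and 1, but all tested genes were not counted at that looser threshold. Neither the Axin2 fold in DHX9-1271 (0.28, 95% interval 0.052 to 0.51, adjusted p = 0.159) nor that of Ascl2 (0.24, 95% interval 0.082 to 0.41, adjusted p = 0.097) was called. Axin2 in DHX9-837 had 0.40 (adjusted p = 0.029) and Ascl2 0.28 (adjusted p = 0.0304). Of these calls in DHX9-837, Axin2 was lost in 8 of 21 alternatives and Ascl2 in 8 of 21.

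The direct test of DHX9-837 against DHX9-1271 called 0 of the 10 genes with limma, where 0.696% of tested genes were higher and 1.21% lower (1.9% in all). Of the 10 genes, 4 had an unadjusted p under 0.05, a looser threshold at which all tested genes were not counted. Myc came closest, with a difference of 0.43 (95% interval 0.22 to 0.65, adjusted p = 0.0611), and it passed in 7 of 21 alternatives (adjusted p from 0.0216 to 0.201 over all of them). Cd44 differed by 0.20 (95% interval 0.055 to 0.35, adjusted p = 0.18), Lgr5 by -0.21 (95% interval -0.40 to -0.022, adjusted p = 0.284) and Sox9 by 0.17 (95% interval 0.0042 to 0.33, adjusted p = 0.334). For Ascl2 the difference was 0.037 (95% interval -0.13 to 0.20), for Prom1 -0.099 (95% interval -0.27 to 0.067) and for Axin2 0.12 (95% interval -0.11 to 0.35). Dhx9 itself differed between the hairpins by -0.02.

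Array by array, DHX9-837 replicate 3 had the highest level of its group for 9 of the 10 genes and the lowest for Prom1. DHX9-1271 replicate 2 had the lowest of its group for 7 genes, tied with replicate 3 for Axin2, and DHX9-837 replicate 2 for 6. In control, replicate 1 was lowest for Axin2, Myc, Smoc2 and Olfm4, and replicate 2 for the other genes except Sox9. Of the 3 genes with negative folds in both hairpins, Prom1 had its lowest level in DHX9-837 replicate 3. For Lgr5 and Smoc2, in contrast, DHX9-837 replicate 3 lay near or within the control range while the other two DHX9-837 arrays were below it.

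RefSeq's promoter table (GRCm38.p6) held 8 windows for 6 of the 10 genes, and Lgr5, Myc, Sox9 and Smoc2 were not matched. The 250 bases before the start are shown for the 4 of the 5 called genes that were matched, of which Axin2, Ascl2 and Cd44 rose and Prom1 fell. For Prom1 the more upstream of its 2 listed starts is shown. Capitals mark a GC box (GGGCGG) or a CCAAT box (CCAAT) on either strand.
Axin2, chr11:108920099-108920348, plus strand: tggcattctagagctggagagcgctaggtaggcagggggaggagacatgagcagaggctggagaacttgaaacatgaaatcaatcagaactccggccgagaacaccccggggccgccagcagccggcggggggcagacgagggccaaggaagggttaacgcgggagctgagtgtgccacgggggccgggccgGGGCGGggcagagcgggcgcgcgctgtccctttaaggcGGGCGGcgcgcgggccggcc
Ascl2, chr7:142969265-142969514, minus strand: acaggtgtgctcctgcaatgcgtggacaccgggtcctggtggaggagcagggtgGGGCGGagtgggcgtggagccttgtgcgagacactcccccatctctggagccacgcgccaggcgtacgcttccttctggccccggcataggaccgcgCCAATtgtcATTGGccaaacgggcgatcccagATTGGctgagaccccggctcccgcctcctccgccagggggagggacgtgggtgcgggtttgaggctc
Cd44, chr2:102901666-102901915, minus strand: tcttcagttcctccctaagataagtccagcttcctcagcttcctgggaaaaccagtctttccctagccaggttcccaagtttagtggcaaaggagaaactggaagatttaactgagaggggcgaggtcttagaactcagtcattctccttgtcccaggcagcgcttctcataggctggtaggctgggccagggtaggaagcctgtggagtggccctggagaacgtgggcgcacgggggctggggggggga
Prom1, chr5:44101737-44101986, minus strand: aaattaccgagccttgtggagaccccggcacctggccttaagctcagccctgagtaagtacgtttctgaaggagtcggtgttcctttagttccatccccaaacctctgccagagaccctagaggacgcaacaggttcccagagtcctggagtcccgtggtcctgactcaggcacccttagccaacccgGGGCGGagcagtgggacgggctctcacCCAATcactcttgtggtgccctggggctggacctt

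The TCF/LEF motif, searched on both strands as CTTTGAA, or with its end changed as CTTTGAT, or likewise as CTTTGTA, or likewise as CTTTGTT, was in 0 of the 8 windows of the 10 genes and in 14.8% of all 32851 windows of that length. These letters are absent from these windows only; nothing follows for sites elsewhere. Axin2 held 2 GC boxes, Ascl2 1 GC box and 3 CCAAT boxes and the shown Prom1 window 1 of each, whereas Cd44 held neither. A GC box was in 32.7% of all windows and a CCAAT box in 33.8%. The windows of Axin2 (69.2% G and C) and Ascl2 (67.6%) were richer in G and C than 89.6% and 87.1% of windows, and that of Cd44 had 56.4%, against a median of 52.4%.

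Other genes of the Wnt pathway were counted by role, beside the 8.13% of all tested genes that rose and the 5.33% that fell. Of 22 tested receptors, ligands and their export factors, 1 rose and 0 fell in both hairpins, and the median log2 fold was -0.010. The gene that rose was Lrp5, a Wnt co-receptor (0.26, SE 0.043, adjusted p = 0.00581), with group means of 8.40 in control, 8.56 in DHX9-1271 and 8.76 in DHX9-837. By hairpin, limma called Lrp5 in DHX9-837 and not in DHX9-1271 (adjusted p = 0.114). In DHX9-837 alone Wnt2b also rose (0.34, adjusted p = 0.0168) and Lrp6 fell (-0.18, adjusted p = 0.0442). That was 13.6% of the list, beside 15.6% of all tested genes called in DHX9-837. In DHX9-1271 alone 0 of the list were called. The 24 genes of signal transduction included the beta-catenin gene Ctnnb1, Apc and the TCF genes Tcf7l1 and Tcf7l2, but not Tcf7. Of them 1 rose: the kinase gene Gsk3a (0.15, adjusted p = 0.0453), whose call was lost in 13 of 20 alternatives. Limma called Gsk3a in DHX9-1271 (adjusted p = 0.0476) and not in DHX9-837 (adjusted p = 0.236). Of 10 secreted inhibitors, limma called 0 in both hairpins, with 2 at an unadjusted p under 0.05 and a median of 0.0077. In DHX9-837 alone 1 of them rose (Frzb), and in DHX9-1271 alone 0 were called. 

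Other Wnt targets and crypt genes came from lists that share no gene with the 10. Their shares of called genes in both hairpins were 11.1% and 15.8%, and all of these calls were rises. Of all tested genes, 13.5% were called and 8.13% rose. Of 18 other Wnt targets tested, 2 rose and 0 fell, with a median of 0.054. Tcf7 and Ephb2 are on this list too but were not among the genes that could be named. Their mean level was 7.27 to 7.42 in control, 7.33 to 7.39 in DHX9-1271 and 7.43 to 7.56 in DHX9-837. Id2, a repressor of basic helix-loop-helix factors, rose by 0.47 (SE 0.057, adjusted p = 0.00146), and the Notch ligand gene Jag1 by 0.39 (SE 0.11, adjusted p = 0.0452), a call lost in 12 of 20 alternatives. Of 19 other crypt stem cell genes tested, 3 rose and 0 fell, with a median of 0.074. The water channel gene Aqp4 had the largest fold of them, 1.19 (SE 0.12, adjusted p = 0.000882), with group means of 6.50 in control, 7.37 in DHX9-1271 and a range of 7.89 to 8.19 in DHX9-837. The ion transporter gene Slc12a2 rose by 0.28 (SE 0.044, adjusted p = 0.00437) and Igfbp4, which encodes an IGF-binding protein, by 0.33 (SE 0.056, adjusted p = 0.00703). With DHX9-1271 alone limma called neither Jag1 nor Igfbp4 (adjusted p = 0.371 and 0.125), and with DHX9-837 alone it called both. Id2, Aqp4 and Slc12a2 were called with each hairpin alone. The mean level of this crypt list was 7.06 to 7.11 in control, 7.19 to 7.22 in DHX9-1271 and 7.18 to 7.24 in DHX9-837. It was higher in all 6 knockdown arrays than in any control. This mean included Aqp4, whose fold of 1.19 was the largest called, and no mean without Aqp4 was taken. The separation is therefore not shown for the list as a whole, of which 16 of 19 tested genes were not called.

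**Figure D4:**
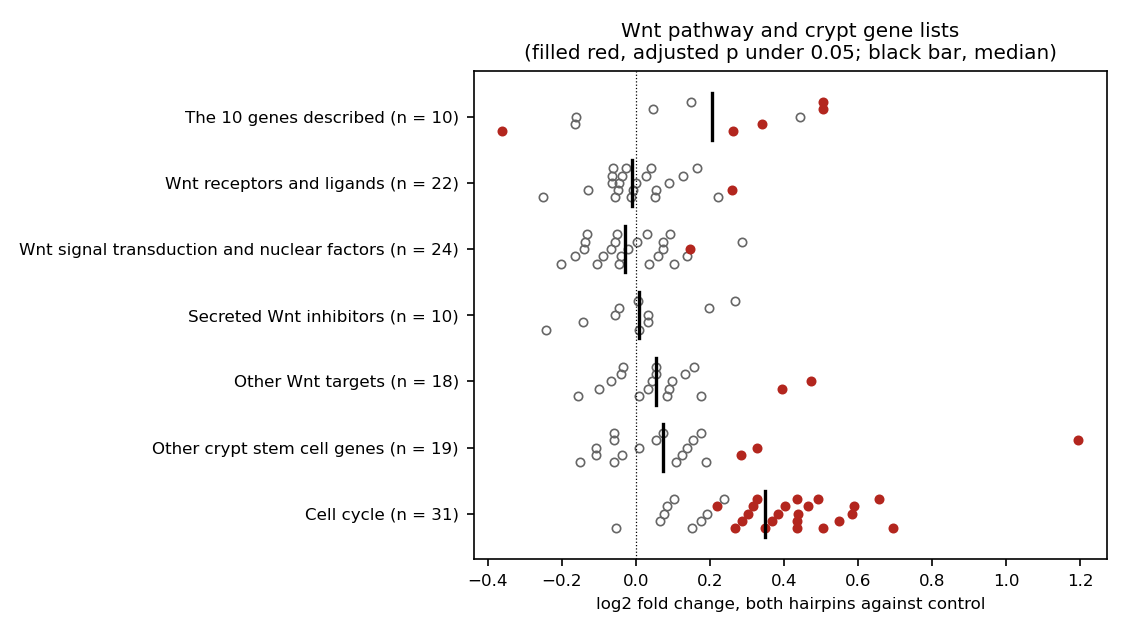
Log2 fold change of both hairpins against control (horizontal axis) for each tested gene of the 10 described and of 6 lists (rows); filled red dots passed an adjusted p under 0.05 and black bars are medians. The medians of the Wnt receptor, signal transduction and inhibitor lists lie near 0 (-0.010, -0.031 and 0.0077) and that of the cell cycle list at 0.35.

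Of 31 tested cell cycle genes, 22 rose, 0 fell and 9 were not called in both hairpins, with a median of 0.35, where 8.13% of all tested genes rose. With each hairpin alone, 12 rose in DHX9-1271 and 22 in DHX9-837, where 2.83% and 8.67% of all tested genes rose. The count in both hairpins was 3 up with a 1.5-fold limit and 17 to 23 up in the other alternatives. Tpx2 (0.49), Mki67 (0.59) and Ccnb2 (0.66) had the smallest p-values. The mean level of the list was 7.54 to 7.82 in control, 7.98 to 8.03 in DHX9-1271 and up to 8.13 in DHX9-837. All knockdown arrays exceeded all controls in this mean, while the hairpins overlapped each other. Of 8 genes of deep crypt secretory cells, which neighbour the stem cells in the colon, 2 rose (Agr2, 0.52, and Cd24a, 0.33) and 0 fell. Of 17 absorptive colonocyte genes 5 fell and 0 rose, with a median of -0.11, where 5.33% of all tested genes fell. Saa1, which encodes an acute phase protein and has a near-identical neighbour in Saa2, fell most (-2.14, adjusted p = 1.72e-05, SE 0.10). Next came Slc37a2 (-0.85) and Slc26a3 (-0.45). The mean of this list was 11.63 to 11.70 in control, 11.39 to 11.47 in DHX9-1271 and 11.22 to 11.33 in DHX9-837. Without Saa1, left out after its values were seen, it was 11.73 to 11.77, 11.57 to 11.64 and 11.46 to 11.56.

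Several lists of markers of other cells of the gut wall that can express Cd44, Myc or Smoc2 also differed between the groups. The counts are for both hairpins, beside the 8.13% of all tested genes that rose and the 5.33% that fell. Of 16 fibroblast and matrix genes 8 rose and 0 fell, and their mean was 9.14 to 9.34 in control and 9.42 to 9.52 in knockdown arrays. Of 12 endothelial genes 6 rose (mean 7.25 to 7.30 in control, 7.39 to 7.51 in knockdown). Of 13 tested B and plasma cell genes 5 rose (mean 7.51 to 7.61, against 7.74 to 8.19), and of 13 tested macrophage and granulocyte genes 5 rose and 1 fell (mean 6.54 to 6.59, against 6.65 to 6.78). The granulocyte markers S100a8, S100a9 and Ltf were under the level filter, and so were no part of these counts. General epithelial genes had 3 of 14 up (Krt18, Krt19 and Tspan8) and 1 down (Cldn3), with means of 10.81 to 10.86 in control and 10.86 to 10.99 in knockdown. Of 14 tested T and NK cell genes 1 rose (Cd4) and 0 fell, with a median of -0.095 and means that overlapped between control and knockdown. Smooth muscle genes had 0 of 10 called by limma, with 1 at an unadjusted p under 0.05. The part of these cells in the rises of Cd44, Myc, Axin2 and Ascl2 was not tested.

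**Figure D5:**
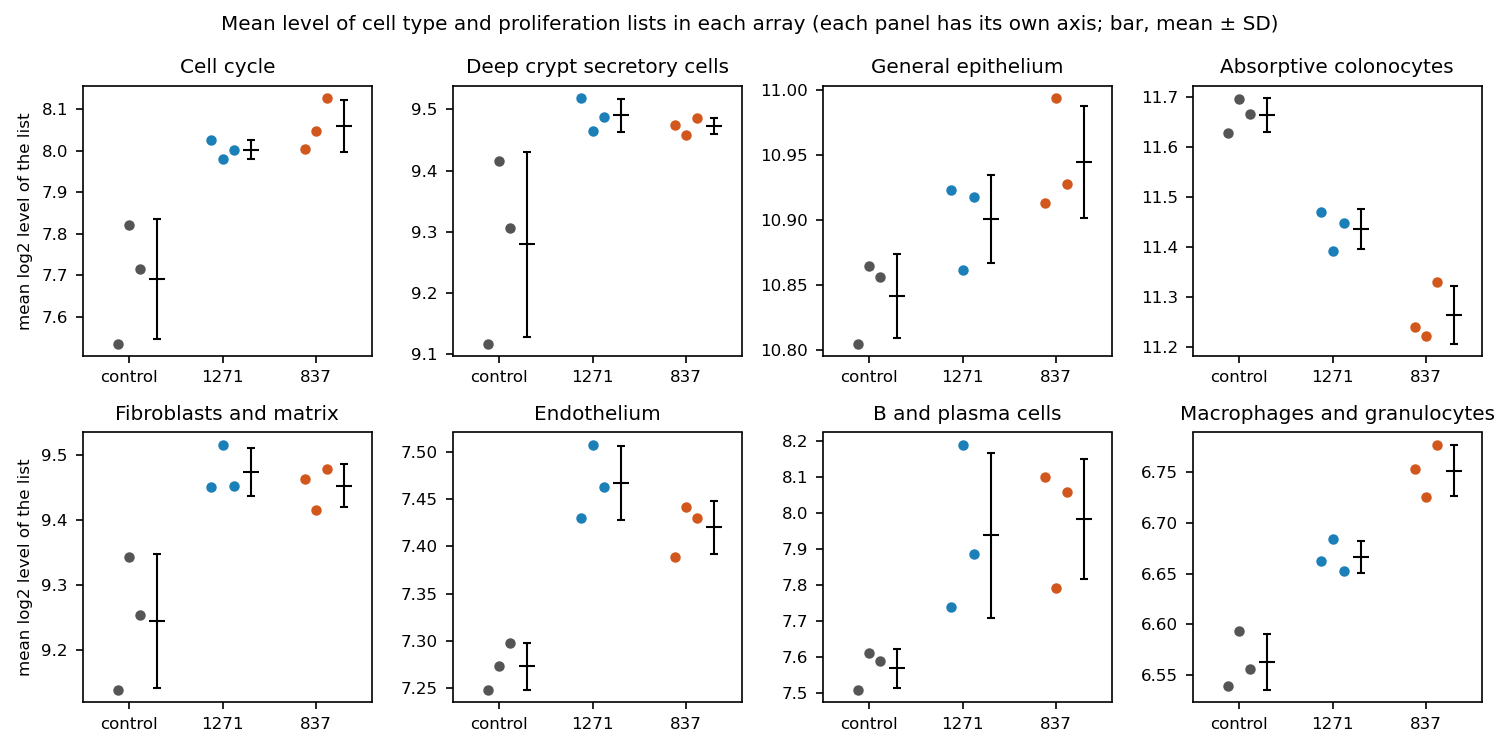
Mean log2 level (vertical axis, 1 scale per panel) of 8 lists of cell cycle and cell type genes in each control, DHX9-1271 and DHX9-837 array; dots are arrays in the order of replicates and the bar is the mean ± SD. The cell cycle, deep crypt secretory, fibroblast, endothelium, B cell and macrophage lists are higher in all 6 knockdown arrays than in controls, and the absorptive colonocyte list is lower.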

How the data were processed

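The deposited values are log2 expression levels of 24973 probe sets in 9 arrays. Per the submitters' processing notes, the authors ran RMA in oligo 1.30.0 under R 3.1.1; the sources used here name no options, probe set definition or build. Normalization between arrays can hide a shift of most transcripts. Entrez Gene numbers in the platform's table gave the names (24015 probe sets with 1 symbol, 0 with several, 958 not listed), and a gene's brightest probe set was kept. Genes with a mean under the 30th percentile (5.28) were left out of tests.

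Groups came from the sample titles. Limma 3.58.1 in R 4.3.3 fitted group means over all 9 arrays (6 residual degrees of freedom) with 4 contrasts. Its two-sided p-values were adjusted over 16808 genes (Benjamini-Hochberg). Counts at an unadjusted p under 0.05 are given without the share of all tested genes at that threshold. The code was tested on simulated data. The 10 genes and the lists were chosen with earlier results of these data known. All 10 genes are named; from other lists up to 8 called genes (Wnt, crypt) or 3 (others) of smallest p in both hairpins or the difference could be named. List means use every named gene of a list. Deviations of same-numbered arrays had correlations from -0.366 to 0.261, and those of differently numbered arrays from -0.445 to 0.391. That gives no sign of pairing by number, but with 3 arrays in each group it cannot exclude one. The main fit used no pairs. There is no read depth; the number of arrays limits precision. Figures used matplotlib 3.10.9.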

Additional observations from a re-analysis of the deposited data

Results flagged for a closer look

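Apart from the 10 genes, 2 genes of the crypt and Wnt target lists differed between the hairpins by limma's direct test. They were 1 of 18 other Wnt targets tested and 1 of 19 other crypt stem cell genes tested. In the receptor, signal transduction and inhibitor lists (22, 24 and 10 tested) 0 were called. Of all tested genes 1.9% were called, so the 2 are described singly and not as a result about the lists. Ccnd1, which encodes cyclin D1, was at a mean of 8.69 in control, 8.59 in DHX9-1271 and 8.86 in DHX9-837, and its difference between DHX9-837 and DHX9-1271 was 0.27 on the log2 scale (adjusted p = 0.0263). Every DHX9-837 array lay above every control array and every DHX9-1271 array below, but against control it was called in DHX9-837 (0.17, adjusted p = 0.0387) and not in DHX9-1271 (-0.10, adjusted p = 0.242). Sorl1, which encodes a sorting receptor, was lower in DHX9-837 than in DHX9-1271 by a log2 difference of -0.38 (adjusted p = 0.0273). Its fold against control was -0.30 in DHX9-837 (adjusted p = 0.0157) and 0.084 in DHX9-1271 (adjusted p = 0.506). Both differences lost their call when any 1 of the 6 knockdown arrays was left out, with adjusted p-values up to 0.131 for Ccnd1 and for Sorl1. Groups of 3 arrays are too small for a test of single outlying arrays.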

How the results depend on the processing

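No fold of the 10 genes that was called changed sign in any alternative, and Dhx9 was called in all 20 or 21 alternatives of each comparison with control. For both hairpins against control the counts of the 10 genes were 4 up and 1 down. With a 1.5-fold limit they were 0 and 0, and leaving out single arrays gave 2 to 4 up and 1 to 2 down. No level filter, array weights and the replicate block each gave 3 up and 1 down. For DHX9-1271 (1 up, 0 down) a filter at the median gene, centred arrays, cyclic loess, and moderation with trend, robust or not, gave 1 down; the 1.5-fold limit gave 0 up; single arrays left out gave 0 to 1 up and 0 to 1 down. For DHX9-837 (4 up, 1 down) the median filter, centring, cyclic loess and the replicate block gave 2 down. The median filter and both trend settings gave 5 up. No level filter and a fit of only the arrays compared gave 3 up, and array weights 2 up. The 1.5-fold limit gave 2 up and 0 down, and single arrays left out 2 to 4 up and 1 to 3 down. For the difference (0 and 0) the median filter, centring, cyclic loess, both trend settings and array weights gave 1 up (Myc), and single arrays left out 0 to 1 up and 0 down. The replicate block, with numbers not known to pair arrays, made Lgr5 called lower in DHX9-837 (adjusted p = 0.0305) and ended the call of Axin2 in both hairpins (adjusted p = 0.0564). Olfm4 could not be tested with the filter at the median gene. The causes were not tested, except that leaving out arrays leaves fewer samples and that a fold limit removes small changes by construction. Signal over background was not analysed here.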

Other observations

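For each called gene, the 3 tested genes with the most similar course over the 9 arrays were taken, by the root mean square difference of profiles centred on their own means, among 14366 genes. For Cd44 they were Spon2 (difference 0.044), the cyclin gene Ccnd2 (0.059) and Cyria (0.061), with log2 folds in both hairpins of 0.53, 0.57 and 0.47. Those of Myc were Gtse1, a cell cycle gene (0.059), the transferrin gene Trf (0.081) and Adss (0.082). For Axin2 they were the nuclear pore gene Nup107 (0.034), Slc12a8 (0.041) and Gas2l3 (0.050), and for Ascl2 the arginine methyltransferase gene Prmt6 (0.031), Cxxc1 (0.042) and the endothelial gene Eng (0.042). The genes nearest to Prom1 were the methyltransferase gene Setd7 (0.046), Taz (0.050) and Pls3 (0.053), with folds of -0.31, -0.36 and -0.34. Among the 10 genes themselves, the closest pairs were Axin2 with Sox9 and Lgr5 with Smoc2 (0.117 each). These are descriptions of 9 arrays in 3 groups and carry no test.

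In both hairpins 25% of goblet cell and 33.3% of enteroendocrine genes tested were called, beside 13.5% of all genes. Of 12 goblet cell genes Creb3l1 and Agr2 rose, the latter also in the deep crypt secretory list, and Tff3 fell. Of 9 tested enteroendocrine genes the hormone genes Gcg and Sct rose and Chga fell. Of 14 tested T and NK cell genes Cd4 rose, and of 7 tested genes of enteric neurons and glia Vip was called up. By hairpin, Vip was called with DHX9-1271 (0.47, limma, adjusted p = 0.0172) and not with DHX9-837 (0.026, adjusted p = 0.866). Limma's direct test of DHX9-837 against DHX9-1271 called the difference in Vip (-0.44, adjusted p = 0.0329). In both hairpins against control, limma called 0 of 6 tuft cell, 0 of 5 adipocyte and 0 of 4 distal colon genes tested. At an unadjusted p under 0.05 there were 1, 1 and 0. In DHX9-837 alone 2 adipocyte genes rose (Fabp4 and Cidec) and 1 tuft cell gene fell (Sh2d6), where 15.6% of all tested genes were called. Between the hairpins limma called Retn (1.04, adjusted p = 0.0312) and Fabp4 (0.88, adjusted p = 0.0362) of the adipocyte list, where 1.9% of all tested genes were called.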
